A study of Mus musculus with 2 samples.

Results

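Cluster 3 was a group of 339 colonocyte-like cells among 3082 cells from the colon epithelium of irradiated mice. Among all 12 clusters it held the highest level of 53 of 78 nuclear genes of oxidative phosphorylation, against 11.3% of 1624 genes that reached a minimum level. Cluster 9 was highest for 18 of the 78. Cluster 3 was taken as the authors' own cluster of that number, and is described across 17044 genes against the other clusters, above all its closest neighbours, clusters 1 (398 cells) and 9 (168 cells). The cells came from wild type C57BL/6 mice, 2 weeks after exposure to irradiation. There was 1 group with 2 libraries, whose titles differ only in the library number and which the deposited averages pool. The series' title places them in work on radiation proctitis, a radiation injury of the rectum, and on transplanted colonoids, which are organoids grown from colon crypts. The labels give neither the number, sex and age of the mice nor which cells, if any, descend from a graft, and unirradiated mice were not analysed here. Levels are mean UMIs (counted RNA molecules) per 10000 UMIs of a cell. With a single average per cluster there is no replicate error and no test, so every difference below is a description of these cells. The authors' clusters were built from the same cells, so that cluster 3 differs from the rest by construction. Ranges in brackets are 95% Poisson intervals (exact), and they cover no error but that of counting. They are also too narrow, because the UMIs behind a value are overestimated.

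Colonocytes, the absorptive cells of the colon, arise from stem cells at the crypt base, pass through a dividing stage and mature on their way to the surface. They draw most of their energy from butyrate, a short-chain fatty acid made by gut bacteria, which mitochondria burn through beta-oxidation, the tricarboxylic acid (TCA) cycle and the respiratory chain. Complexes I to IV of that chain pass electrons to oxygen and complex V, the ATP synthase, makes ATP. Most of its subunits are encoded in the nucleus and 13 in the mitochondrial genome. Gasdermins are another family of interest here: when cut, most of them form pores in membranes, and the C-type members are carried in mice by a row of neighbouring genes.

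The depth of the cells could be read from the averages. UMI totals were identified for 276 of the 339 cells (81.4%), with a median of 12104.5 and quartiles of 10452.8 and 13981.2. Clusters 1, 9 and 8 had medians of 16130, 12871 and 6558. Genes of the mitochondrial genome took 3.70% of the UMIs in cluster 3, 6.88% in cluster 1 and 4.50% in cluster 9. Malat1, a nuclear RNA, took 1.15%, 3.79% and 1.73%. These 2 shares differ between clusters along with the results below, and their part in them was not tested.

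The working name of the cluster, oxidative early colonocytes, came with Gsdmc3 and Cox4i1 as its markers. Both had their highest value of the 12 clusters in cluster 3, which is no test of the name because they were given with it. Cox4i1 is also one of the 78 nuclear genes of oxidative phosphorylation. Those 78 genes were listed because of the name, so their levels are no test of it either. Of 25 markers of absorptive colonocytes, 18 were at 1 or more per 10000 in cluster 3 or on average over the other 9 epithelial clusters, which leave out clusters 5 and 10 with their immune markers. The summed level of the 25 was 318, above 298 in cluster 1 and below 420 in cluster 9, 665 in cluster 4 and 926 in cluster 8. Stem cell markers summed to 1.36, above cluster 11 (1.09) and below the other 8 epithelial clusters (2.17 to 8.06). Cycling markers summed to 2.27, above clusters 4 (1.22) and 8 (0.785), close to cluster 1 (2.42) and below 42.0 in cluster 7, where they were highest. Lgr5, which marks stem cells at the crypt base, had no UMI, where 3 UMIs would give 0.0097. Pcna, a DNA replication clamp, was at 0.174, the lowest of all 12 clusters. Goblet cell genes such as Spink4 (2.5) and Tff3 (2.33) were close to their levels in clusters 1 (2.73 and 2.78) and 9 (2.51 and 2.70), against 287 and 218 in cluster 0, where they were highest. T, B and mast cell markers summed to at most 0.115 per list, and Cd3d, Cd3e and Cd79a were at 0. Averages hold no order in time, so the word early could not be checked.

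One cell stood apart. Ngp and Camp, both made by immature neutrophils, headed the genes that led cluster 3, at 2.81 and 2.35. All 483 UMIs of Ngp lay in a single cell of 5073 UMIs, of which they were 9.52%. The same cell held 404 of the 405 UMIs of Camp, all 118 of Lyz2 and all 16 of Chil3, and 53 genes were seen in it alone. A cell of 567 UMIs was the only one with Ncf1, Sirpa and Cd300a, which myeloid cells express, but at only 1 UMI each. A cell of 16801 UMIs was the only one with Clec7a, Cxcr4 and Csf2rb, at 3, 2 and 1 UMIs. These counts are too low to name the type of either cell. Over the 12 neutrophil markers measured, the summed level was 20.0 in cluster 3, against 1.03 to 32.9 in the other epithelial clusters and 926 in cluster 5. S100a8 and S100a9 made most of this sum, at 7.01 and 5.48. Lcn2 (0.699) and Ltf (0.488) could not be traced to 1 or 2 of the cells with an identified total. Neutrophil genes are therefore left aside in what follows.

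Only 3 of 1381 genes at 1 or more per 10000 (0.217%) were at least 2-fold above the highest of the other 11 clusters, and apart from Ngp and Camp this was Gsdmc3 alone. Folds are on the scale of the level plus 0.1, which understates those of low genes. Gsdmc3 was at 1.77 (1.63 to 1.93), from about 548 UMIs. It was at 0.713 (0.569 to 0.881) in cluster 9, at 0.622 in cluster 2 and at 0.489 (0.413 to 0.575) in cluster 1, and between 0 and 0.428 in the other 6 epithelial clusters. The interval of cluster 3 lay above those of clusters 1 and 9. The intervals are too narrow and Gsdmc3 was given as a marker of the cluster, so this is no test. Its fold over cluster 9, the next highest, was 2.3. Just under the threshold were Gm15401 at 1.84-fold, Gsdmc4 at 1.73-fold, the amino acid transporter gene Slc6a14 at 1.65-fold, the alanyl-tRNA synthetase gene Aars at 1.56-fold and Mgst1, a glutathione transferase gene, at 1.5-fold.

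The C-type gasdermins did not share 1 pattern. Gsdmc4 was at 12.1 (11.7 to 12.5) in cluster 3, then 6.98 in cluster 1, 6.65 in cluster 4 and 5.20 in cluster 9. Gsdmc2 was at 3.39 (3.19 to 3.60) in cluster 3, between cluster 1 at 3.69 (3.47 to 3.91) and cluster 9 at 2.3, and cluster 4 was highest at 3.94. The fold of cluster 3 over cluster 1 was thus 3.18 for Gsdmc3, 1.73 for Gsdmc4 and 0.922 for Gsdmc2. Gsdmd, the gasdermin cut by inflammatory caspases, was at 1.46 in cluster 3, within the range of 0.159 to 4.10 in the other epithelial clusters. Dfna5, the gene of gasdermin E, was at 0.0404, and Gsdma was listed at 0. The 3 C-type genes measured lie in a row on the minus strand of mouse chromosome 15 (GRCm38, GENCODE M21): Gsdmc2 at chr15:63824346-63845177, Gsdmc3 at chr15:63857724-63878558 and Gsdmc4 at chr15:63891264-63912297. Another C-type gene, Gsdmc at chr15:63775968-63808759, lies beside them on the same strand and was not among the 6 gasdermins measured. Transcripts of the C-type genes are alike. Of the 50-base words in the annotated transcripts, 51.3% for Gsdmc2, 46.0% for Gsdmc3 and 39.0% for Gsdmc4 also occur in another C-type gasdermin, Gsdmc included. In the last 300 bases the shares are 57%, 53.8% and 12.7%. How the authors' counting treated reads that match several of them is not given in the sources used here, so the split between Gsdmc2 and Gsdmc3 is uncertain.

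**Figure D1:**
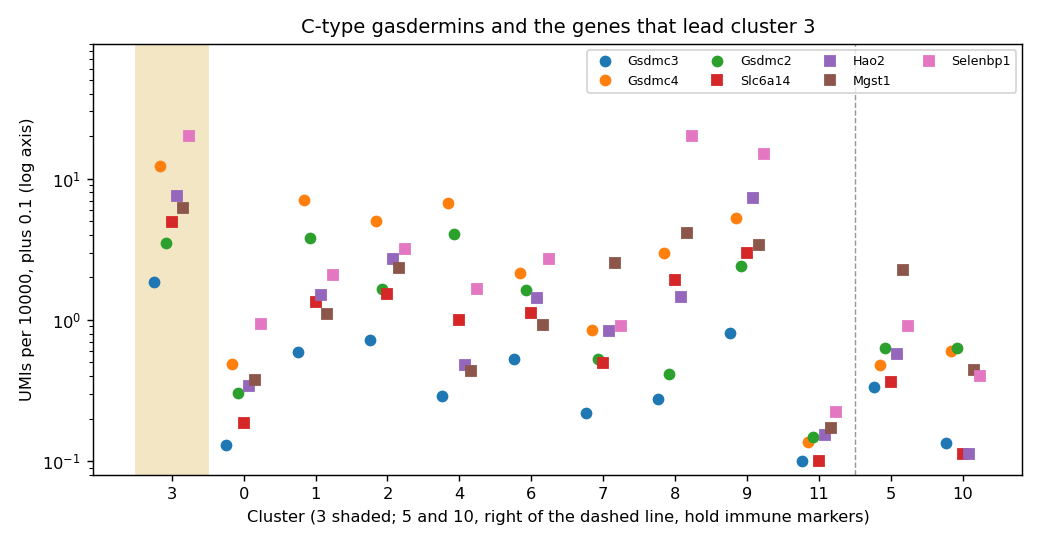
Levels of C-type gasdermins (circles) and of 4 other genes named in the text (squares) in each cluster, in UMIs per 10000 plus 0.1 on a log axis, with 1 average per cluster and no error. Gsdmc3, Gsdmc4, Slc6a14 and Mgst1 are highest in cluster 3, while Hao2 is at 7.42 there and 7.17 in cluster 9, and Selenbp1 at 20.0 there and 19.9 in cluster 8.

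Over the 12 clusters, the genes whose log2 levels followed Gsdmc3 most closely included Hao2 (Pearson r = 0.92), Slc6a14 (0.91), Gsdmc4 (0.84), Slc39a5 (0.82), Vipr1 (0.81), Gsdmc2 (0.80), Acsm3 (0.79), Trim2 (0.79) and Fgfbp1 (0.79). These correlations are a description over 12 averages that share libraries. Hao2, which encodes a peroxisomal hydroxyacid oxidase, was at 7.42 in cluster 3 (7.12 to 7.73) and at 7.17 in cluster 9 (6.70 to 7.67), intervals that overlap, against 1.41 in cluster 1. Slc6a14 was at 4.84 (4.60 to 5.09), against 2.90 in cluster 9 and 1.24 in cluster 1. Vipr1, the receptor of vasoactive intestinal peptide, was at 1.04, 0.698 and 0.745 in clusters 3, 9 and 1.

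Genes of the respiratory chain, listed because of the cluster's name, were higher in cluster 3 as a group rather than by single large folds. Together, the 78 nuclear genes took 8.79% of all UMIs in cluster 3, 7.84% in cluster 9, 6.91% in cluster 8, 5.52% in cluster 1 and 3.22% to 5.35% in the other 6 epithelial clusters. Of these genes, 76 reached 1 per 10000 in cluster 3. Their level was above the mean of the other 9 epithelial clusters for 77 of 78, against 55.4% of the 1624 genes at 1 or more per 10000. It was highest of all 12 clusters for 53 of 78, against 11.3%, while cluster 9 was highest for 18. The median log2 difference from the other epithelial clusters was 0.67, against 0.06 over those 1624 genes. Only 2 of the 78, Cox6c and Ndufa6, were at least 2-fold above, against a background of 2.46%.

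Complex IV, cytochrome c oxidase, which hands electrons to oxygen, had the largest median difference, 0.89, with 10 of 11 genes above the mean. Cluster 8 came close, with a median difference of only 0.15 between cluster 3 and it. Cox4i1, a core nuclear subunit, was at 49.7 (49.0 to 50.5), 41.1 (39.9 to 42.3), 40.0 and 28.1 (27.5 to 28.7) in clusters 3, 9, 8 and 1. Cox6c was at 31.0, 24.6, 23.0 and 15.1 in the same order, and Cox5a at 28.5, 24.0, 25.2 and 16.2. Cox6a1 was higher in cluster 8 (36.9) than in cluster 3 (30.9). The exception was Ndufa4, first described as a complex I protein and now placed with complex IV, at 5.55, 9.13 and 5.06 in clusters 3, 9 and 1, a log2 difference of -0.04 from the other epithelial clusters. Cox7a1, a subunit isoform best known from muscle and not on the list, was at 3.25, 1.21, 1.97 and 4.27 in clusters 3, 1, 9 and 8.

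The other complexes differed by similar amounts. All 36 genes of complex I, which takes electrons from NADH, lay above the mean (median 0.65), with Ndufa6 at 16.8, 7.74, 11.1 and 18.8 in clusters 3, 1, 9 and 8. Complex II, which links the TCA cycle to the chain, had a median of 0.54 over its 4 genes, and Sdhb was at 6.98, 4.28 and 6.90 in clusters 3, 1 and 9. Complex III with cytochrome c had a median of 0.66, and its hinge protein gene Uqcrh was at 22.9, 13.6 and 18.2. The 17 genes of the ATP synthase had a median of 0.65. Of these, Atp5o was at 14.9, 9.14 and 14.0, and Atpif1, which encodes the inhibitor of the enzyme, was at 11.1 and 13.4 in clusters 3 and 9.

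**Figure D2:**
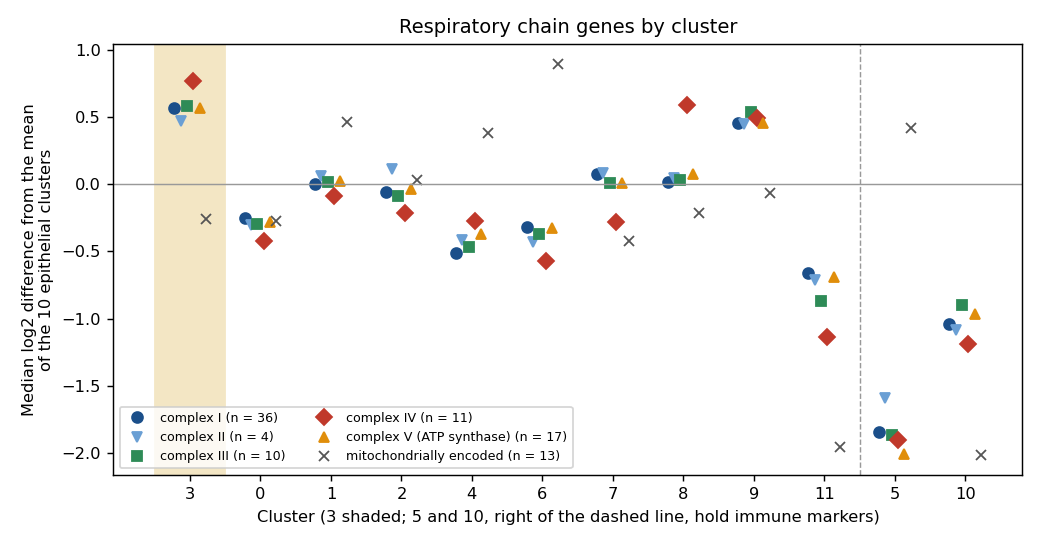
Median log2 difference of the genes of each respiratory complex, and of the 13 mitochondrially encoded genes, from the mean of the 10 epithelial clusters (cluster 3 included), by cluster, with the number of genes in the key. In cluster 3 the 5 nuclear groups lie between 0.47 and 0.77 and the mitochondrially encoded genes at -0.26, while in cluster 9 the nuclear groups lie between 0.45 and 0.54. In cluster 8 complex IV lies at 0.59 and the other nuclear groups between 0.02 and 0.07.

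Against the 2 neighbours taken singly, the difference was plain for cluster 1 and slight for cluster 9. All 78 genes were above cluster 1, against 54.1% of the 1624 genes, with a median log2 difference of 0.60. Above cluster 9 were 59 of 78, against 52%, with a median of 0.14. Complex IV differed most from cluster 9, by 0.28, and complex III with cytochrome c did not differ in its median (-0.01), with 5 of 10 genes on each side. Cycs, the gene of cytochrome c itself, had levels of 6.78 and 7.67 in clusters 3 and 9, and Cyc1 of 8.13 and 9.13.

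The mitochondrially encoded genes did not share this pattern. Of 13, only mt-Nd3, at 0.0369, was above the mean of the other epithelial clusters. The median log2 difference was -0.29, and -0.65 from cluster 1. Their summed level was 302 in cluster 3, above clusters 0 (295), 7 (270) and 11 (77.7) and below the other 6 epithelial clusters, from 317 in cluster 8 to 518 in cluster 1 and 702 in cluster 6. The gene mt-Cytb was at 111, 206 and 129 in clusters 3, 1 and 9, and mt-Co1 at 15.1, 30.0 and 23.2. Summed UMIs of the 78 nuclear genes were 2.91 times those of the 13 mitochondrial genes in cluster 3, 2.31 times in cluster 9, 2.18 times in cluster 8 and 1.07 times in cluster 1. Higher ratios than in cluster 3 were seen in clusters 11 (4.15) and 10 (3.52), the smallest ones. The share of mitochondrial UMIs is also used as a sign of cell quality, and its part in this ratio was not tested. Leaving out all mitochondrially encoded and ribosomal protein genes before rescaling gave a median of 0.66 for the 78 nuclear genes.

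Promoters of these genes were searched for short known motifs. RefSeq start sites (GRCm38.p6) gave a promoter for 66 of the 78, and the window ran from 250 bases before to 50 after the start. The palindrome bound by NRF1, a factor known to act on respiratory chain genes, reads gcgca followed by the reverse complement of these letters, and was found in 5 of the 66 (7.58%), in 2.22% of the promoters of genes at 1 or more per 10000 in cluster 3 and in 0.977% of all 27025 promoters. CCGGAA, the core bound by ETS factors, was in 26 (39.4%), against 31.9% and 15.2%. The TATA box, searched as TATANAA, was in 5 (7.58%), against 7.04% and 11.8%. Both strands were searched, and none of these letters holds another of the motifs. These are matches of letters and not sites of binding. The stretches below show the 100 bases before the start of Gsdmc3, because it led the cluster, and of the 2 genes highest in cluster 3 with an NRF1 match and the 2 with an ETS match in that stretch. Capitals mark the matches, 5′ to 3′ on the gene's strand, where an ETS core on the other strand reads TTCCGG.
Gsdmc3, chr15:63878559-63878658, minus strand: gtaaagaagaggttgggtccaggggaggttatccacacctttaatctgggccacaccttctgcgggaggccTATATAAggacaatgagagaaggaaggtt
Atp5k, chr5:108434400-108434499, minus strand: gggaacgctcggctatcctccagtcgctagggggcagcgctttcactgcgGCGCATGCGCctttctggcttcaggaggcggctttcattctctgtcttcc
Ndufa11, chr17:56717662-56717761, plus strand: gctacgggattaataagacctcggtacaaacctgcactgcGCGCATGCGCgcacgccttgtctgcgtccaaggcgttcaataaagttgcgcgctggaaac
Cox6a1, chr5:115348959-115349058, minus strand: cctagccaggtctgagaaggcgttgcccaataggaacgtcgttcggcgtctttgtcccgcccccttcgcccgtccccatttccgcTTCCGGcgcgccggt
Cox6b1, chr7:30626115-30626214, minus strand: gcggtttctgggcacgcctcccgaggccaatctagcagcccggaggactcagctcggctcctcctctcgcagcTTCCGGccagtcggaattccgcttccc
The TATA match of Gsdmc3 lies 29 to 23 bases before its start, and its 300-base promoter held 2 CG pairs, against 19 for Atp5k, 25 for Ndufa11 and 32 for Cox6a1, and a median of 20 over the 66 promoters.

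Pathways that feed the respiratory chain were higher than in cluster 1 but not than in cluster 9. Genes of the TCA cycle and pyruvate entry lay above cluster 1 for 19 of 20 (54.1% of the 1624 genes) and above cluster 9 for 6 (52%), with medians of 0.40 and -0.09. The pyruvate carrier genes Mpc1 (4.04, 2.48 and 3.36 in clusters 3, 1 and 9) and Mpc2 (4.97, 3.03 and 4.04) were highest in cluster 3. Fatty acid and butyrate oxidation genes lay above cluster 1 for 27 of 28 and above cluster 9 for 9, against the same shares, with medians of 0.40 and -0.23. The butyrate transporter genes Slc5a8 (2.67, 1.21 and 2.16) and Slc16a1 (1.89, 0.879 and 1.59) were above both neighbours, whereas Acads, which encodes the enzyme that begins the oxidation of butyrate, was at 3.25, 1.91 and 5.46 in clusters 3, 1 and 9. Mitochondrial ribosomal protein genes lay above the mean of the other epithelial clusters for 29 of 30 (median 0.30), and those of mitochondrial transport and import for 14 of 18 (median 0.38), against 55.4%. Of the latter, Slc25a5, an ADP/ATP carrier, was at 30.1, and Slc25a4, the carrier isoform of muscle and heart, at 0.0511.

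Glycolysis was not higher with respiration. Of 16 glycolysis and hypoxia genes, 5 lay above the mean of the other epithelial clusters (55.4% of the 1624 genes) and 3 above cluster 1 (54.1%), with medians of -0.10 and -0.30. Gapdh was at 16.5 in cluster 3 and 20.4 in cluster 1, Ldha at 12.8 and 12, and Bnip3 and Ndrg1, both induced by low oxygen, at 0.0802 and 0.102, the lowest of the 12 clusters. Antioxidant enzymes were mixed, with 14 of 20 above the mean, against 55.4%. Mgst1 was highest of all clusters in cluster 3, at 6.12, against 1.01 in cluster 1 and 3.30 in cluster 9. Gpx2, an epithelial glutathione peroxidase, was lower, at 4.60 against 11.2 and 6.16. Ckmt1, mitochondrial creatine kinase, which moves phosphate from ATP to creatine, was at 43.4 (42.7 to 44.2), against 36.7, 15.6 and 13.1 in clusters 8, 1 and 9.

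Known regulators of respiration and of colonocyte identity lay above the mean of the other epithelial clusters for 13 of 22, near the share of 55.4% among the 1624 genes, with a median of 0.17. Ppargc1a, a coactivator of mitochondrial genes, was at 0.399, 0.336 and 0.282 in clusters 3, 1 and 9. Esrra, a nuclear receptor that works with it, was at 0.939, 0.819 and 0.851, Nrf1 at 0.125, 0.116 and 0.125, and Tfam, which maintains mitochondrial DNA, at 0.303, 0.288 and 0.418. Hnf4a, a master regulator of enterocyte genes, was at 2.06, 1.58 and 2.32. Highest of the 12 clusters in cluster 3 were Nr5a2 at 0.283 and Ppara at 0.0558. Cdx2, a homeobox factor of intestinal identity, was at 0.778 and 0.454 in clusters 3 and 1 but at 3.43 in cluster 9.

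**Figure D3:**
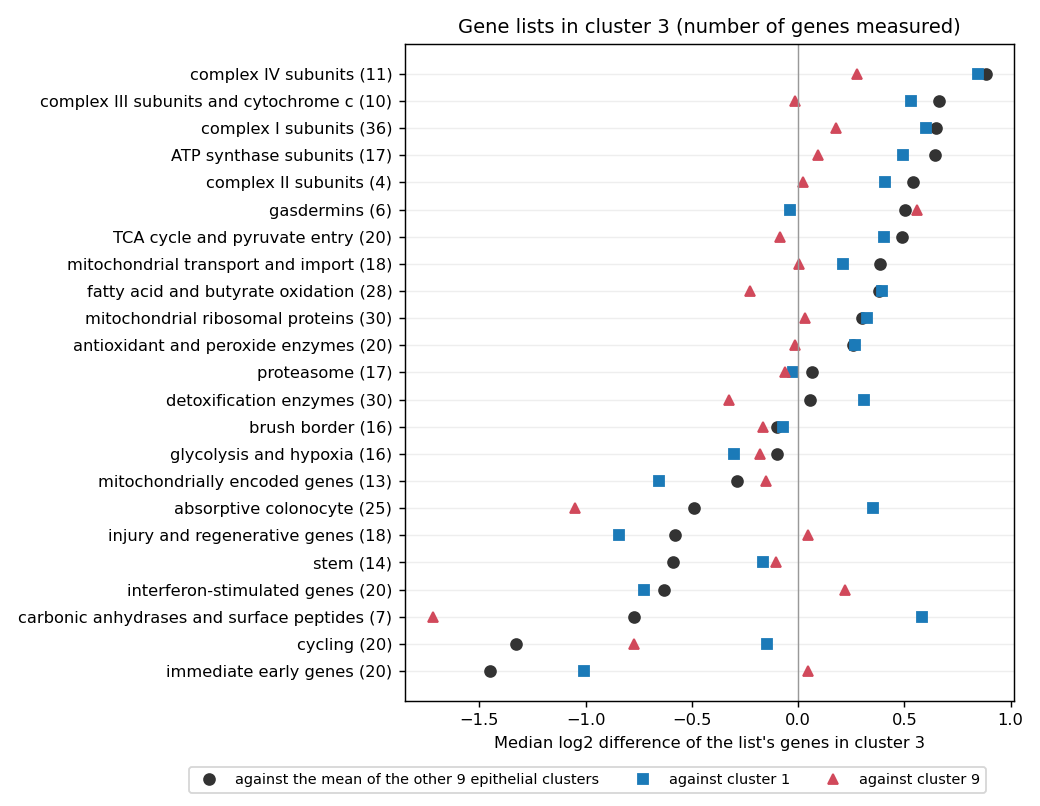
Median log2 difference of gene lists in cluster 3 from the mean of the other 9 epithelial clusters (circles), from cluster 1 (squares) and from cluster 9 (triangles), with the number of genes measured in brackets. Complex IV lies at 0.89, 0.85 and 0.28, and immediate early genes at -1.45, -1.01 and 0.05.

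Taken over all genes, 40 of 1381 (2.9%) exceeded the mean of the other epithelial clusters by 2-fold or more, and 120 of 1490 (8.05%) fell short of it by as much. That split depended on the setting: median-of-ratios scaling gave 21 above and 141 below, or 13% above against 25%, whereas the median of the other epithelial clusters in place of their mean turned it around, with 112 above and 55 below. The largest folds above, beyond the neutrophil and gasdermin genes, were those of Hao2 (4.19-fold), Slc6a14 (4.16-fold), Selenbp1 (3.88-fold), Mgst1 (3.63-fold) and Tnni1 (3.56-fold). Selenbp1, which encodes a methanethiol oxidase, was at 20.0 (19.5 to 20.5), 19.9 and 15 in clusters 3, 8 and 9, but at 1.97 in cluster 1. Wfdc2, a secreted protein gene of epithelia, was at 24.6, against 16.7 in cluster 2 and 10.1 in both neighbours. The 10 largest folds below were those of enteroendocrine genes such as Pyy, Sst and Chgb and of Tuba1a, all highest in cluster 11. Cldn4, a tight junction gene, was at 0.0886 (0.0586 to 0.129), the lowest of all 12 clusters, against 0.777 in cluster 1, 0.711 in cluster 9 and 0.311 to 4.76 over the other epithelial clusters.

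Immediate early genes, which cells switch on within minutes of a stimulus and also during tissue dissociation, were low. Of 20, 14 lay 2-fold or more under the mean of the other epithelial clusters, against 7.39% of the 1624 genes, and none lay above it. In 5 of the 20 cluster 3 had the lowest level of the 10 epithelial clusters, against 2.28%. Fos was at 5.25 in cluster 3, 5.57 in cluster 9, 11.5 in cluster 1 and up to 36.6 in other epithelial clusters. Jun was at 3.16, 4.28, 11.4 and up to 31.0. None of the 20 was above cluster 1 (54.1%) and 11 were above cluster 9 (52%), with medians of -1.01 and 0.05. How long each cell spent in dissociation is not given in the sources used here.

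Genes of injury and of interferon response had lower medians than in cluster 1 but not than in cluster 9. Of 18 injury and regenerative genes, 2 were above cluster 1 (median -0.84), against 54.1% of the 1624 genes, and 12 above cluster 9 (median 0.05), against 52%. Clu, clusterin, a marker of regenerating epithelium, was at 0.843 (0.744 to 0.952), 14.5 (14.1 to 15) and 0.0885 in clusters 3, 1 and 9. Of 20 interferon-stimulated genes, 2 were above cluster 1 (median -0.73) and 16 above cluster 9 (median 0.22), against the same shares. Irf7, a transcription factor of that response, was at 0.444, 2.08 and 1.62, below cluster 9 unlike most of the list. Among 20 targets of p53, the DNA damage factor, 3 lay above the mean of the other epithelial clusters (median -0.37), against 55.4%. Only 4 of these 20 reached the level of the genes behind that share. Cdkn1a, which halts the cell cycle, was at 2.64, 2.90, 3.25 and 6.52 in clusters 3, 1, 9 and 8.

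Against cluster 1, 64 of 1578 genes (4.06%) were at least 2-fold higher in cluster 3 and 74 (4.69%) at least 2-fold lower. Besides neutrophil genes, the largest folds up were those of Selenbp1 (9.73-fold), Sult1a1, a sulfotransferase gene (2.59 against 0.206), Klk1, tissue kallikrein (14.6 against 1.99), Mt2, a metallothionein gene (3.28 against 0.440), Mgst1 (5.61-fold) and Slc37a2, a sugar phosphate transporter gene (1.38 against 0.177). The largest folds down included Clu (15.5-fold), Slpi, a protease inhibitor gene (0.209 against 4.43), Wfdc18 (0.988 against 12), Aldh1a3, an enzyme of retinoic acid synthesis (0.0388 against 1.35), and Duoxa2, the maturation factor of an epithelial oxidase that makes hydrogen peroxide (0.0817 against 1.39). Xist, the RNA that silences an X chromosome in female cells, was also among them, at 0.0197 in cluster 3 and 1.34 in cluster 1. It was at 0.0223 in cluster 9, at 0 in cluster 8 and at 0.236 to 2.99 in the remaining epithelial clusters. The Y-linked genes Ddx3y (0.307) and Eif2s3y (0.373) were seen in cluster 3 and in every other cluster. Clusters 3, 9 and 8, with the least Xist, also had the highest shares of UMIs from the 78 nuclear respiratory chain genes (8.79%, 7.84% and 6.91%). The averages do not say which mouse or library a cell came from, and the part of that in the other differences was not tested.

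Against cluster 9, 67 of 1575 genes (4.25%) had a level 2-fold or more higher, and 53 (3.37%) a level lower by as much. Fxyd4, whose protein modulates the sodium pump, had a level of 6.11 in cluster 3 but only 0.0162 in cluster 9, from about 2 UMIs (0.00185 to 0.0597), too few for a fold. Other large folds up were those of Tnni1, a troponin gene of slow muscle (5.05 against 0.465), Eno3, an enolase gene (3.39 against 0.277), Tgm3, a transglutaminase gene (15 against 1.71), and Slc37a2 (1.38 against 0.0506). All 5 of these were higher still in cluster 8, at 21.9, 6.92, 8.27, 35.8 and 6.43. Hoxb13, a homeobox gene of the posterior gut, was at 7.44, 4.74, 7.72 and 1.31 in clusters 3, 1, 8 and 9, and Hoxd13 at 0.364, 0.446, 0.290 and 0.0200. The largest folds down included those of Fabp2, an intestinal fatty acid binding protein gene (1.37 against 26.7), Emp1 (0.165 against 3.69) and Sptssb, a subunit gene of sphingolipid synthesis (0.0430 against 1.71). Cyp2c55 (1.74 against 12.5) and Cyp2c65 (0.0929 against 1.44), both cytochrome P450 genes, belonged with them.

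Markers of colonocyte maturation did not share 1 order over clusters 3, 1 and 9. Car1, carbonic anhydrase 1, was at 18.3 (17.8 to 18.7), 4.58 and 60.4 in clusters 3, 1 and 9, and Guca2a, which encodes guanylin, at 38.6, 11.2 and 150. The water channel gene Aqp4 was at 2.14, 0.537 and 5.45. Levels of these 3 genes in cluster 3 lay between those of its neighbours. Below both neighbours were Aqp8 (0.862, 1.04 and 4.45), Emp1 (0.165, 0.696 and 3.69) and Clca4a (0.0629, 0.323 and 1.08), and above both was Slc6a14. Genes of the most mature surface cells were scarce in cluster 3 by comparison with cluster 8, where Aqp8 was at 23.3. Car4 was at 1.91 against 38.1 and Slc26a3, the chloride and bicarbonate exchanger, at 2.42 against 20.7. Car2 was the exception among the carbonic anhydrases, at 19.4, 18.4, 9.99 and 7.74 in clusters 3, 9, 8 and 1. Of the 25 absorptive markers, 17 were above cluster 1 (54.1% of the 1624 genes), 6 above cluster 9 (52%) and 10 above the mean of the other epithelial clusters (55.4%), with medians of 0.35, -1.05 and -0.49.

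Of 206 genes that differed at least 2-fold between clusters 1 and 9, 154 (74.8%) had a level in cluster 3 between the 2. These genes were chosen for the gap between clusters 1 and 9, which favours levels in between. No other cluster was placed on the same scale, so the share does not set cluster 3 apart. The median position was 0.50 on a log2 scale that runs from 0 at cluster 1 to 1 at cluster 9, with 102 genes nearer to cluster 9 and 104 nearer to cluster 1. Among the 103 genes higher in cluster 9 the median position was 0.44, and among the 103 higher in cluster 1 it was 0.60. A further 23 genes were above both neighbours and 29 below both. Farthest above were Tnni1, Fxyd4, Eno3 and B3gnt7 (2.94, against 1.15 in cluster 1 and 0.444 in cluster 9), and Ggh, which encodes a folate hydrolase, was also among them (11.1, against 6.16 and 2.87). Over 3276 genes, the rank correlation of cluster 3 was 0.94 with cluster 9, 0.93 with cluster 1, 0.88 with cluster 2 and 0.87 with cluster 8.

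**Figure D4:**
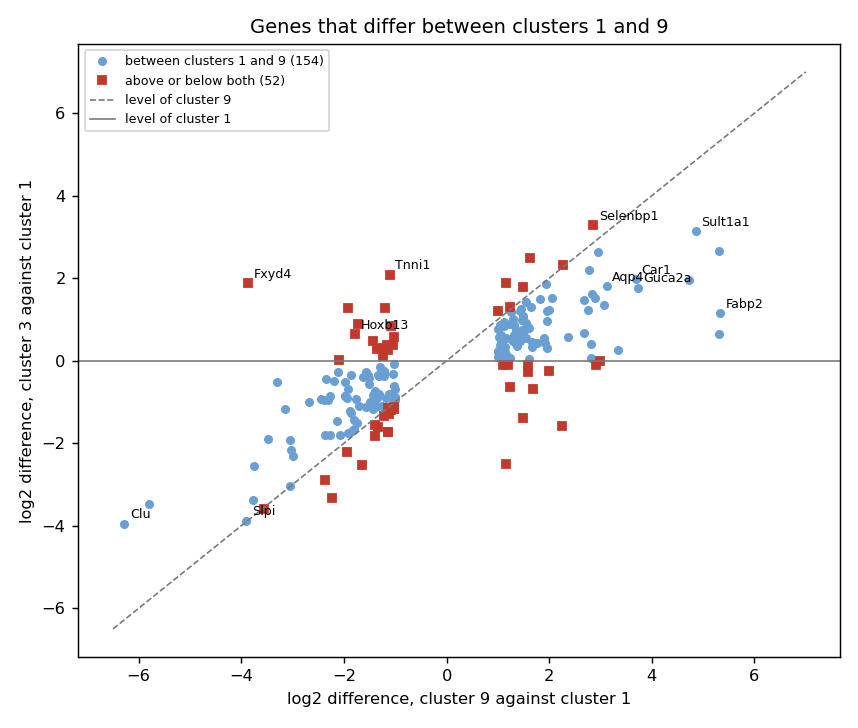
Log2 difference of cluster 3 from cluster 1 (vertical) against that of cluster 9 from cluster 1 (horizontal) for 206 genes that differ at least 2-fold between clusters 1 and 9, where both axes share cluster 1. The 154 circles lie between the line of cluster 1 and that of cluster 9, and the 52 squares lie outside, with Fxyd4 and Tnni1 farthest above both.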

How the data were processed

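The authors deposited 1 table of averages. Its values are a signal made by the authors on a linear scale: the mean over a cluster's cells of UMIs scaled to 10000 per cell, as read from the deposited columns, each of which sums to 10000. The submitters' processing notes name Cell Ranger 3.1.0, Seurat 2.3 and mm10. No annotation, cell filter, doublet treatment or clustering setting is given in the sources used here. Averages do not separate the 2 libraries, so replicates could not be compared and shared cell barcodes could not be counted.

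Numbers of cells and UMI totals of cells were recovered from averages that equal 10000 divided by a whole number (relative tolerance 1e-12). UMIs behind a value were estimated from the number of cells and the harmonic mean total, with exact Poisson 95% intervals. The steps were tested on simulated data, where cell numbers were recovered but harmonic mean totals came out too high, in cluster 3 and more so in some other clusters, so that UMI numbers behind values are overestimated and the intervals are too narrow.

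Clusters were compared with Python 3.11.15 as log2(level + 0.1), for genes at 1 or more per 10000 and at 2-fold, against the mean of the other 9 epithelial clusters (clusters 5 and 10, with immune markers, left out), the highest other cluster, and clusters 1 and 9. Genes were named by rank: the 10 largest folds of each comparison, the 10 highest levels, the 10 profiles most like Gsdmc3, and the highest and most different members of each list. Regulators and gasdermins were taken in full. Counts over a list include its members under 1 per 10000, whereas the shares beside them are over genes at that level. Some genes that meet these rules are not reported here. Other names, such as Xist, Cox7a1 and the genes of single cells, were added once their values had been seen. The members and lists were chosen with earlier results of these data known. Alternatives were other pseudocounts, minimum levels, folds, scalings and references.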

Additional observations from a re-analysis of the deposited data

How the results depend on the processing

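Of 79 alternative values, 44 stayed close to the main value (within 0.1 on the log2 scale or 1.5 times for a count) and 35 moved. Most of these values are counts, which cannot change sign. The median of the respiratory chain genes could, and it did not. The counts are given in the order above and below the other epithelial clusters, higher and lower than cluster 1, higher and lower than cluster 9, and between clusters 1 and 9, where the main counts were 40, 120, 64, 74, 67, 53 and 154. With a pseudocount of 1 they were 16, 73, 29, 32, 32, 26 and 68, with a minimum level of 5 they were 16, 36, 22, 19, 22, 14 and 39, and with a 4-fold threshold 5, 59, 15, 16, 13, 18 and 45. A minimum of 5 also left 0 leading genes. A minimum of 0.5 gave 202 below the other epithelial clusters, 132 lower than cluster 1, 101 higher and 83 lower than cluster 9 and 234 between. A stricter pseudocount, minimum or fold leaves fewer genes by construction. Median-of-ratios scaling gave 21 above, and a median of 0.51 for the respiratory chain genes in place of 0.67. It moved the median of all genes from 0.06 to -0.10, so that the respiratory chain genes lay 0.61 above all genes in both. The medians of the proteasome and of the epithelial list changed sign under it, from 0.07 to -0.07 and from 0.05 to -0.12. The respiratory chain genes above cluster 9 numbered 57 in place of 59 under it and without mitochondrial and ribosomal genes. A reference of all 11 other clusters gave 93 above, 212 below and a median of 0.83, and includes immune cells. In alternatives chosen after seeing the data, leaving out genes that rest on 1 cell but for 1 UMI left 1 leading gene, Gsdmc3, and the median of the other epithelial clusters as reference gave 112 above and 55 below, which turns the excess of lower genes around. No paired analysis was possible because the averages pool both libraries, and for the same reason leaving out a replicate was not possible. Depth limits genes under about 0.0097 per 10000 in cluster 3, the level of 3 UMIs.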
